A study of Homo sapiens with 6 samples.

Results

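Transcript levels of 39 genes of glycolysis and of the response to low oxygen were compared between A549 cells that overexpressed IL17D and A549 cells that carried the empty vector. The genes were taken by symbol from the 58735 genes of the deposited count table, and all 39 were found there. They comprised 18 glycolytic enzymes and 21 other hypoxia genes, the latter made up of 6 regulators, 4 genes of sugar and lactate transport and of the pyruvate switch, and 11 other targets of the hypoxia-inducible factors. Enough reads for a test were present for 38 of them, among 15754 genes tested in all, and CA9 was not tested. In IL17D-overexpressing cells, the glucose carrier gene SLC2A3 was higher and its relative SLC2A1 was lower, CA12 was lower, and EPAS1, EGLN1, ADM, NDRG1 and LDHA were higher, with fold changes between 0.82 and 1.36. The abundant enzymes of glycolysis differed little between the groups.

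A549 is a human lung adenocarcinoma cell line. The study asked what IL17D, a cytokine gene of the IL-17 family, does in lung cancer cells, and the IL17D-overexpressing group (3 libraries) carried a lentiviral vector with the IL17D open reading frame in a backbone with the human PGK promoter and an internal ribosome entry site before GFP, while the control group (3 libraries) carried the empty vector. Both groups were grown in RPMI medium with fetal bovine serum, no low-oxygen treatment is named for them, and whether the libraries of a group came from separate cultures or transductions is not given in the sources used here. The p-values below therefore measure the spread among these libraries, which may be technical. The PGK promoter is that of PGK1, a glycolytic gene of the list.

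Total counts on genes lay between 14319398 and 16521021 per library. IL17D had 18 to 34 counts in control libraries and 26772 to 32155 counts in IL17D-overexpressing libraries. Of 6 epithelial and lung markers, the keratin genes KRT8 (106085 to 126416 counts) and KRT18 (50425 to 60404 counts) were abundant, CDH1 had 533 to 743 counts, and EPCAM (9 to 21 counts), KRT19 (3 to 11 counts) and NKX2-1 (2 to 9 counts) were near absent. CDH1, which encodes E-cadherin, was lower in IL17D-overexpressing cells by a log2 fold change of -0.28 (edgeR adjusted p = 0.0306). In bulk RNA, fewer cells that express a gene and less RNA of it per cell cannot be told apart. The 13 markers of leukocytes, endothelium, fibroblasts and mast cells summed to 23.8 to 26.5 CPM (counts scaled to the library size by edgeR) in control libraries and 20.4 to 25.5 CPM in IL17D-overexpressing libraries. Most of this sum came from COL1A1, a collagen gene of fibroblasts, with 274 to 394 counts per library. Its mean was 23.3 CPM in control and 21.0 CPM in IL17D-overexpressing libraries, and CD14 had 8 to 20 counts. Of the 13 markers, PTPRC, CD2 and TPSB2 had 0 counts in all libraries. This allows up to 3 counts per library, or 0.182 to 0.210 CPM, for counting error only.

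Glycolysis splits glucose into pyruvate and yields ATP without oxygen, and tumour cells often run it at a high rate. The hypoxia-inducible factors (HIFs) pair an alpha subunit, HIF-1α or HIF-2α, with ARNT. When oxygen is plentiful, EGLN prolyl hydroxylases mark the alpha subunit, VHL binds the marked protein, and it is degraded, so that HIF activity is set mainly at the protein level, which RNA-seq does not measure. In low oxygen the pair binds short DNA elements with the core ACGTG or GCGTG and raises the transcription of glucose carriers, glycolytic enzymes and genes for pH control, vessel growth and mitophagy.

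The stretches upstream of the genes that differed are shown so that the letters HIF is known to bind can be read in them. In RefSeq's promoter table (GRCh38.p14, 250 bases before to 50 bases after each start), 34 of the 39 genes had an entry, and SLC2A3, VEGFA, NDRG1, VHL and BNIP3L had none. The 250 bases before the start are printed 5′ to 3′ on the strand of the gene, for the 6 genes with an adjusted p under 0.05 and an entry. Capitals mark ACGTG or GCGTG and their reverse complements CACGT and CACGC. For LDHA, the more upstream of its RefSeq starts is shown.
EPAS1, chr2:46297157-46297406, plus strand: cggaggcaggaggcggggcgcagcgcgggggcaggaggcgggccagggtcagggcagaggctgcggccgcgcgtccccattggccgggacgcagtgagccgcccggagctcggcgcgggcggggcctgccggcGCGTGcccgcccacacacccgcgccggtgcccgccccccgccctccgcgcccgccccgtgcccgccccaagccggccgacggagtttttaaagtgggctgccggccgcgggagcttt
EGLN1, chr1:231422288-231422537, minus strand: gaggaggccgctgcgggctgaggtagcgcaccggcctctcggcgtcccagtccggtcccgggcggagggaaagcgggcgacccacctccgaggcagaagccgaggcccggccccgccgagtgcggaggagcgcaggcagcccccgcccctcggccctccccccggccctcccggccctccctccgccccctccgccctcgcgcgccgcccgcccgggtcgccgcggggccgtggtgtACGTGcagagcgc
SLC2A1, chr1:42958869-42959118, minus strand: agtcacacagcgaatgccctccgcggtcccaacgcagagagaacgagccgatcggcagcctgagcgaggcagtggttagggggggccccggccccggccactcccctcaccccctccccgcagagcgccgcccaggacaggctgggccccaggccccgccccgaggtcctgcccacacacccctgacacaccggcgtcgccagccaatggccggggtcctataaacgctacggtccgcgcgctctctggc
LDHA, chr11:18394313-18394562, plus strand: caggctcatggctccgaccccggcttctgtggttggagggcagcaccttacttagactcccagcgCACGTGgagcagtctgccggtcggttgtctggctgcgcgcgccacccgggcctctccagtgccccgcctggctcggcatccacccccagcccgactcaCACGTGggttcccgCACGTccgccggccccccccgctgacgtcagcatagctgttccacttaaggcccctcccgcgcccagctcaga
CA12, chr15:63381847-63382096, minus strand: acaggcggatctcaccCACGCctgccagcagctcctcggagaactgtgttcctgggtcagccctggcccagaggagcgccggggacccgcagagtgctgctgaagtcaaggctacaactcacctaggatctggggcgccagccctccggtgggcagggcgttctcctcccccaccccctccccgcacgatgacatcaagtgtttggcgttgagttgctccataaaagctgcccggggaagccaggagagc
ADM, chr11:10304823-10305072, plus strand: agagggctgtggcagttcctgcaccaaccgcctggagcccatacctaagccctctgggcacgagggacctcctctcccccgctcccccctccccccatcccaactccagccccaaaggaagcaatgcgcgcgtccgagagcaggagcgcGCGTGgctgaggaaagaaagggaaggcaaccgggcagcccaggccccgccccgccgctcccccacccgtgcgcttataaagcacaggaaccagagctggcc
Among these, LDHA held 5 matches upstream of this start, 4 of them in a pair of CACGTG palindromes, each of which was counted on both strands. The match of EGLN1 lay close to the start, at position -13, and those of ADM, EPAS1 and CA12 at -101, -117 and -234, where -1 is the base before the start. For SLC2A1 no match lay in the bases shown, and 1 lay in the 50 bases after the start. Over the 62 promoters of the 34 genes, 41 (66.1%) held ACGTG or GCGTG on either strand, against 60.4% of the 15439 promoters of tested genes and 48.45% of all 35116 promoters in the table. ACGTG was present in 37.1% of them against 25.2% for tested genes, and GCGTG in 40.3% against 48.35%. A match describes the letters and is not a measured binding site, and the start sites used in A549 cells were not measured. The RefSeq starts of EPAS1 and EGLN1 lie 3740 and 2757 bases inside the outermost start of the gene in the count table.

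Each gene was compared with edgeR's quasi-likelihood test, and the adjusted p is the Benjamini-Hochberg value over all 15754 tested genes. A gene was called at an adjusted p under 0.05. Of the 38 tested genes of the list, 6 were called higher in IL17D-overexpressing cells and 2 lower, against 0.673% and 0.908% of all tested genes, or 1.58% in either direction. Before adjustment, 9 of the 38 had a p under 0.05, against 11.6% of all tested genes. The control and IL17D-overexpressing libraries did not overlap for 7 genes that were higher and 4 that were lower, against 7.48% and 8.31% of all tested genes. The 95% interval of the log2 fold change stayed within 0.2 of 0 for 20 genes, against 31.4% of all tested genes. In depth the list stood above the rest, with a median control level of 78.6 CPM against 19.7 CPM. The median log2 fold change was 0.014 for the 38 genes and -0.0004 for all tested genes.

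**Figure D1:**
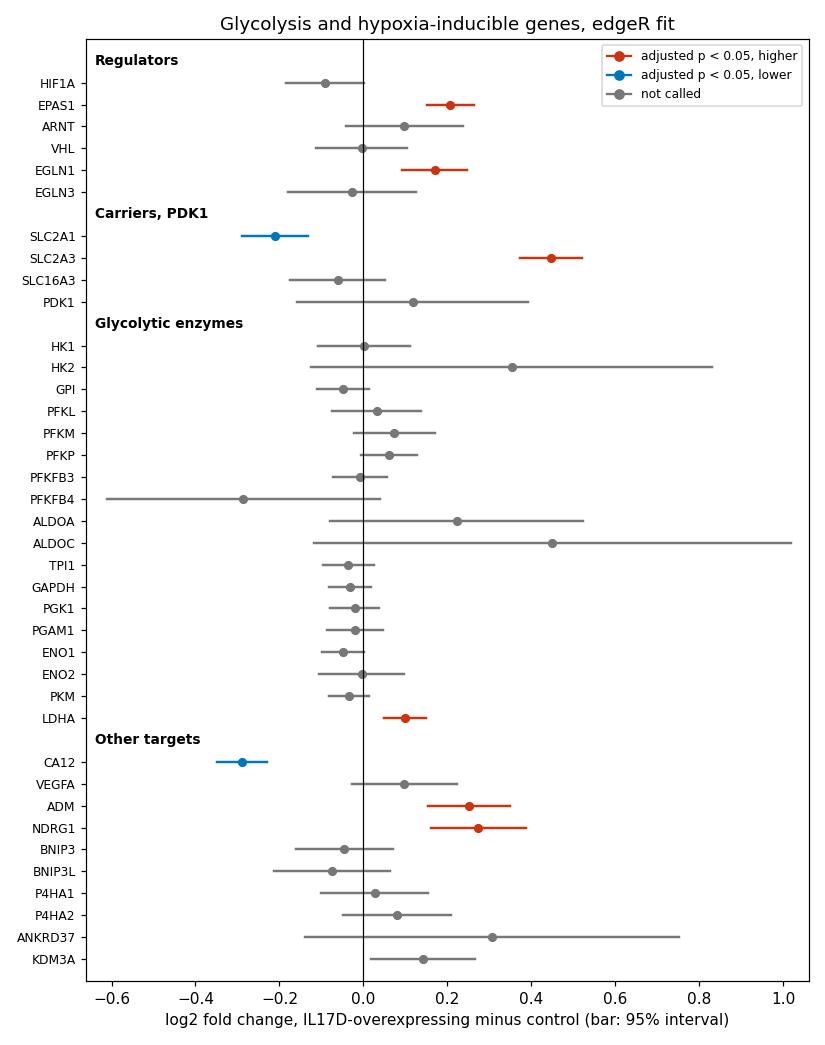
Log2 fold change (IL17D-overexpressing minus control) of the 38 tested genes, grouped by role, with points for the edgeR estimate and bars for the 95% interval. Red and blue mark the 6 genes called higher and the 2 called lower at an adjusted p under 0.05, and most enzymes of glycolysis lie close to 0.

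Of the 6 regulators of the response, EPAS1 and EGLN1 were higher in IL17D-overexpressing cells, and none was lower at an adjusted or an unadjusted p under 0.05 in edgeR's test. Among all tested genes, 0.673% were called higher and 0.908% lower. EPAS1 (ENSG00000116016, chromosome 2, 46293667 to 46386703, plus strand) encodes HIF-2α, and its promoter is the first shown above. Its levels were 958.5, 962 and 996 CPM in control replicates 1, 2 and 3 and 1118, 1118 and 1131 CPM in the IL17D-overexpressing replicates. The groups did not overlap, and the libraries of each group lay close together. The log2 fold change was 0.21 (SE 0.028, 95% interval 0.15 to 0.26, edgeR adjusted p = 7.3e-06).

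EGLN1 (ENSG00000135766, chromosome 1, 231363751 to 231425044, minus strand) encodes PHD2, the main oxygen-sensing hydroxylase of HIF. It had 193.5, 192 and 201.5 CPM in the control replicates and 221, 225 and 215 CPM in the IL17D-overexpressing replicates. All 3 IL17D-overexpressing libraries lay above the control libraries, with a log2 fold change of 0.17 (SE 0.038, 95% interval 0.093 to 0.25, edgeR adjusted p = 0.0092). The call was lost without control replicate 2 (edgeR adjusted p = 0.0746), IL17D replicate 1 (0.0613) or IL17D replicate 2 (0.0674).

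HIF1A (ENSG00000100644, chromosome 14, 61695513 to 61748259, plus strand) encodes HIF-1α. Its levels were 158, 169 and 188 CPM in the control replicates and 161, 162 and 160.1 CPM in the IL17D-overexpressing replicates. The control libraries were spread on both sides of the IL17D-overexpressing libraries, and the log2 fold change of -0.091 was not called (95% interval -0.18 to 0.002, edgeR adjusted p = 0.449). Without control replicate 3, the highest of the 6, it was -0.021, and without control replicate 1, the lowest, it was -0.15 (edgeR adjusted p = 0.141).

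Per kilobase of exon, EPAS1 was the more abundant alpha subunit gene in every library, at 133 ± 2.82 CPM per kilobase (SD, n = 3) in control cells and 154 ± 1.01 in IL17D-overexpressing cells, against 33.3 ± 2.91 and 31.3 ± 0.175 for HIF1A. The ratio of EPAS1 to HIF1A was 4.28, 4.01 and 3.74 in the control replicates and 4.89, 4.88 and 4.98 in the IL17D-overexpressing replicates. It did not overlap between the groups, but a two-sided exact permutation test of 3 libraries against 3 cannot go below p = 0.1, which is the value it gave (0.4 after Benjamini-Hochberg adjustment over 8 ratios). Among the remaining regulators, the log2 fold changes were 0.098 for ARNT, the partner of both alpha subunits, -0.0044 for VHL and -0.027 for EGLN3, a hydroxylase that HIF itself induces. None of these 3 was called, and their groups overlapped.

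The glucose carriers differed in opposite directions. SLC2A3 (ENSG00000059804, chromosome 12, 7919230 to 7936275, minus strand) encodes GLUT3, a carrier with high affinity for glucose that is typical of neurons. It had 218.5, 226 and 222 CPM in the control replicates and 299.7, 314 and 295 CPM in the IL17D-overexpressing replicates. This was the largest called difference in the list, with a log2 fold change of 0.45 (SE 0.036, 95% interval 0.37 to 0.52, edgeR adjusted p = 1.38e-10), or a 1.36-fold higher level. Of the 31-base stretches in its transcripts, 23.3% also occur in SLC2A14, a near copy of the gene with 0 to 4 counts per library, and the sum of both genes gave a log2 fold change of 0.45 (edgeR adjusted p = 1.42e-10).

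SLC2A1 (ENSG00000117394, chromosome 1, 42925375 to 42959176, minus strand) encodes GLUT1, the widely expressed carrier that is a classical HIF target. Its levels were 236, 229 and 221 CPM in the control replicates and 206, 192.5 and 194.5 CPM in the IL17D-overexpressing replicates. Every IL17D-overexpressing library lay below every control library, with a log2 fold change of -0.21 (SE 0.039, 95% interval -0.29 to -0.13, edgeR adjusted p = 0.0013).

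When levels were scaled to exon length, the order of the carriers was thereby inverted. Per kilobase of exon, SLC2A1 stood at 48.5 ± 1.603 and SLC2A3 at 36.1 ± 0.623 CPM per kilobase (SD, n = 3) in control cells, and at 41.9 ± 1.58 and 49.2 ± 1.61 in IL17D-overexpressing cells. The ratio of SLC2A3 to SLC2A1 was 0.709, 0.757 and 0.7705 in the control replicates and 1.11, 1.25 and 1.16 in the IL17D-overexpressing replicates. The ratio lay below 1 in all control libraries and above 1 in all IL17D-overexpressing libraries, with p = 0.1 in the two-sided exact permutation test, the smallest value it allows (0.4 adjusted over the 8 ratios). Without scaling to length, the control means were close, at 228.9 CPM for SLC2A1 and 222.2 CPM for SLC2A3. In control replicate 3, SLC2A3 (222.2 CPM) then stood just above SLC2A1 (221.2 CPM). The order in control cells thus depends on the length used, and the transcript forms present in A549 cells were not measured. The lactate exporter gene SLC16A3 (MCT4) had a log2 fold change of -0.062, and PDK1, whose kinase inhibits pyruvate dehydrogenase, had 0.12 with a wide interval (-0.16 to 0.39). Neither was called.

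**Figure D2:**
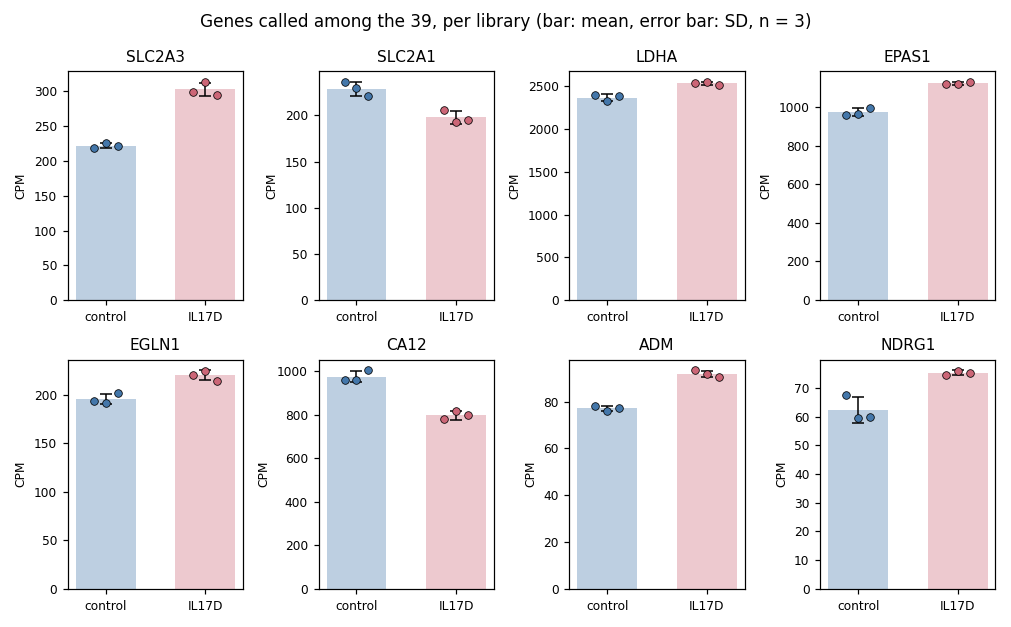
CPM in each library (points) of the 8 genes called at an adjusted p under 0.05, with bars for the group mean and error bars for the SD (n = 3). In each panel the 3 control points and the 3 IL17D-overexpressing points do not overlap, and by fold change SLC2A3 differs most and LDHA least.

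The 18 glycolytic enzymes were all tested, and LDHA alone was called, beside 1.58% of all tested genes called in either direction. The list had 8 positive and 10 negative log2 fold changes with a median of -0.0055. No enzyme was called lower with edgeR, DESeq2 or limma voom, against 0.908% of all tested genes in edgeR's test. LDHA was also the only enzyme with an unadjusted p under 0.05 in that test, against 11.6% of all tested genes. The 95% interval lay within 0.2 of 0 for 14 enzymes, against 31.4% of all tested genes. The enzymes are deeply covered, with a median control level of 552 CPM against 19.7 CPM for all tested genes. All 10 with a control mean of at least 500 CPM had an interval within 0.2 of 0. For these 10 (GPI, PFKP, PFKFB3, TPI1, GAPDH, PGK1, PGAM1, ENO1, PKM and LDHA), no bound of an interval was farther from 0 than 0.15, the upper bound of LDHA. Together the 18 enzymes took 1.64% to 1.68% of all counts in the control libraries and 1.635% to 1.66% in the IL17D-overexpressing libraries.

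LDHA (ENSG00000134333, chromosome 11, 18394388 to 18408425, plus strand) encodes the M subunit of lactate dehydrogenase, which turns pyruvate into lactate. It had 2394, 2329 and 2388 CPM in the control replicates and 2538, 2555 and 2518 CPM in the IL17D-overexpressing replicates. The groups did not overlap, but the difference was small, with a log2 fold change of 0.098 (SE 0.024, 95% interval 0.049 to 0.15, edgeR adjusted p = 0.025), or 1.07-fold. The call was lost without control replicate 2 (edgeR adjusted p = 0.129) and without IL17D replicate 1 (0.122), 2 (0.117) or 3 (0.106).

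GAPDH (ENSG00000111640, chromosome 12, 6533927 to 6538374, plus strand), the glyceraldehyde phosphate dehydrogenase that served as the reference gene of the study's RT-PCR, had 3448, 3302 and 3491 CPM in the control replicates and 3342, 3380 and 3301 CPM in the IL17D-overexpressing replicates. The groups overlapped, and the log2 fold change was -0.031 (95% interval -0.081 to 0.019, edgeR adjusted p = 0.7). PGK1 (ENSG00000102144, chromosome X, 77910739 to 78129296, plus strand), the phosphoglycerate kinase whose promoter is in the vector, had 739, 727.5 and 726 CPM in the control replicates and 716, 719 and 725 CPM in the IL17D-overexpressing replicates. Its groups lay just apart, without a call (log2 fold change -0.021, 95% interval -0.080 to 0.037, edgeR adjusted p = 0.862).

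Several other steps of the pathway gave like values. The log2 fold changes were -0.048 for the glucose phosphate isomerase GPI, -0.036 for the triose phosphate isomerase TPI1, -0.020 for the phosphoglycerate mutase PGAM1 and -0.034 for the pyruvate kinase PKM. ENO1, the main enolase, had 2757, 2722 and 2676 CPM in the control replicates and 2660, 2589 and 2633 CPM in the IL17D-overexpressing replicates. Its libraries did not overlap, yet it was not called (log2 fold change -0.049, 95% interval -0.098 to 2e-04, edgeR adjusted p = 0.434). Among the bifunctional enzymes that make and remove the activator of phosphofructokinase, the abundant PFKFB3 had a log2 fold change of -0.0073 (interval -0.071 to 0.057), and PFKFB4, with 69 to 117 counts per library, had -0.29 (interval -0.61 to 0.038).

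Among the isoforms of the list, 1 exceeded the others within the hexokinase, phosphofructokinase and enolase steps. For hexokinase this does not hold beyond the list. HKDC1, a hexokinase gene outside it, stood at 28.7 ± 0.725 CPM per kilobase (SD, n = 3) in control cells, above both HK1 and HK2. It was not called (log2 fold change -0.0055, edgeR adjusted p = 0.985). The hexokinase HK1, at 10.7 ± 0.383 CPM per kilobase (SD, n = 3) in control cells, exceeded HK2, at 0.459 ± 0.111, and the phosphofructokinase PFKP, at 196 ± 10.4, exceeded PFKM (12.9 ± 0.291) and PFKL (11.97 ± 1.12). In control cells PFKM and PFKL did not differ beyond their spread. Enolase was mainly ENO1 (515 ± 7.70) and less ENO2 (18.7 ± 0.553). None of these genes was called, and the ratios within the hexokinase, phosphofructokinase, aldolase and enolase families gave p-values from 0.3 to 0.7 in the exact permutation test (0.64 to 0.7 adjusted over the 8 ratios). The log2 fold changes were 0.0017 for HK1, 0.032 for PFKL, 0.073 for PFKM, 0.061 for PFKP and -0.0038 for ENO2. HK2, with 36 to 62 counts per library, had a log2 fold change of 0.35 with an interval from -0.12 to 0.83, so that a difference of the size of SLC2A3 could not be told from none at this depth.

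**Figure D3:**
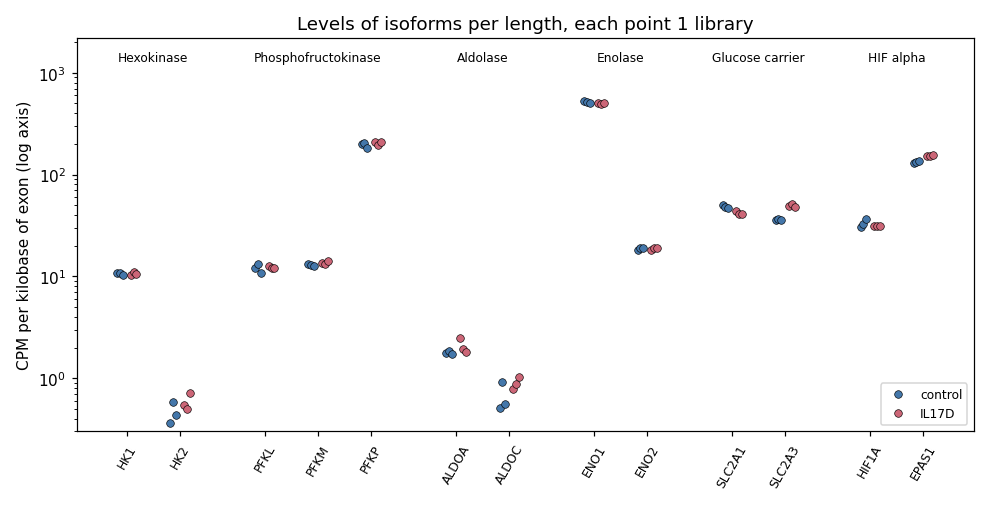
Levels of isoforms in each library, in CPM per kilobase of exon on a log axis, for control (blue) and IL17D-overexpressing (red) libraries. The pairs of colours nearly coincide for HK1, the phosphofructokinases and the enolases. They scatter more for HK2, ALDOA and ALDOC, which have few counts and whose groups overlap. SLC2A3 moves from below SLC2A1 to above it, and EPAS1 stands above HIF1A in all libraries.

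Both aldolases were counted at very low levels. ALDOA (ENSG00000149925, chromosome 16, 30064164 to 30070457, plus strand), which encodes the muscle-type aldolase that most cells use, had 112, 105 and 110 counts in the control replicates in that order, and IL17D-overexpressing replicates 1, 2 and 3 had 161, 125 and 100. This is 1.79 ± 0.0583 CPM per kilobase (SD, n = 3) in control cells, whereas TPI1, the next enzyme of the pathway, stood at 288.5 ± 4.31. In GENCODE 29, 42.3% of the exon bases of ALDOA lie in exons of AC093512.2, a protein-coding gene annotated over it on the same strand, which had 39 to 68 counts per library. Of the 31-base stretches of ALDOA transcripts, 42.9% occur in other genes. How reads in shared exons were counted is not given in the sources used here, and the part of the overlap in the low count was not tested. The sum of both genes was not called either (log2 fold change 0.29, edgeR adjusted p = 0.328, against 0.22 and 0.632 for ALDOA alone). The value of ALDOA was 0.066 without IL17D replicate 1 and 0.32 without IL17D replicate 3. ALDOC, with 24 to 43 counts, had a log2 fold change of 0.45 and the widest interval of the list (-0.12 to 1.02).

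**Figure D4:**
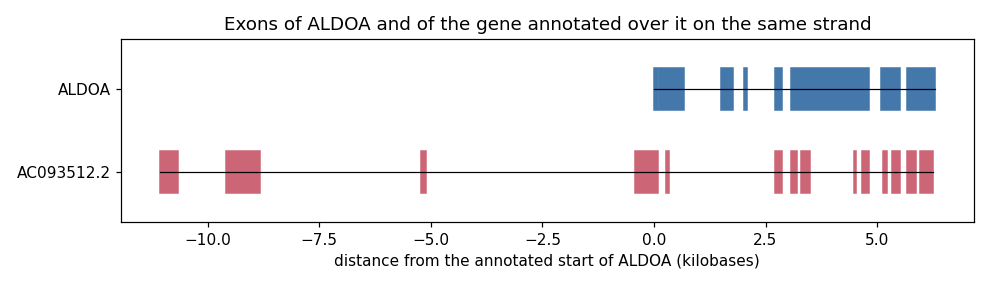
Exons of ALDOA (blue) and of AC093512.2 (red) in GENCODE 29, as distance in kilobases from the annotated start of ALDOA, with lines for the span of each gene. The red exons to the right of 0 lie under blue exons, and 42.3% of the exon bases of ALDOA are shared.

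Of the 11 other HIF targets, 10 were tested, of which ADM and NDRG1 were higher and CA12 was lower. Among all tested genes, 0.673% were called higher and 0.908% lower. CA12 (ENSG00000074410, chromosome 15, 63321378 to 63382161, minus strand) encodes a carbonic anhydrase of the cell surface that helps to hold the pH of cells that make acid. It had 960.5, 962 and 1004 CPM in the control replicates and 779, 819.5 and 797 CPM in the IL17D-overexpressing replicates. The groups lay far apart relative to their spread, with a log2 fold change of -0.29 (SE 0.030, 95% interval -0.35 to -0.23, edgeR adjusted p = 3.69e-08), a 0.818-fold level.

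The related CA9 (ENSG00000107159, chromosome 9, 35673856 to 35681159, plus strand), a standard marker of hypoxic tumour cells, had 9, 1 and 15 counts in the control replicates in that order, and IL17D-overexpressing replicates 1, 2 and 3 had 8, 5 and 3. These counts are too few for a comparison, and 38.5% of the exon bases of CA9 overlap ARHGEF39 on the opposite strand, which had 547 to 678 counts. Whether the counting used strand is not given in the sources used here.

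ADM (ENSG00000148926, chromosome 11, 10304680 to 10307397, plus strand) encodes adrenomedullin, a peptide that widens vessels. It had 78.2, 76.1 and 77.2 CPM in the control replicates and 93.4, 91.7 and 90.5 CPM in the IL17D-overexpressing replicates. Each group was tight, and the log2 fold change was 0.25 (SE 0.048, 95% interval 0.15 to 0.35, edgeR adjusted p = 0.0018). NDRG1 (ENSG00000104419, chromosome 8, 133237171 to 133302022, minus strand), a gene of stress and differentiation that hypoxia induces, had 67.5, 59.3 and 59.8 CPM in the control replicates and 74.5, 76.0 and 75.3 CPM in the IL17D-overexpressing replicates. Control replicate 1 stood nearest to the other group without reaching it, and the log2 fold change was 0.27 (SE 0.056, 95% interval 0.16 to 0.39, edgeR adjusted p = 0.0036).

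KDM3A (ENSG00000115548, chromosome 2, 86440647 to 86492716, plus strand), a histone demethylase, had 45.8, 48.1 and 49.8 CPM in the control replicates and 50.03, 54.3 and 54.3 CPM in the IL17D-overexpressing replicates. The groups were just apart, and the log2 fold change of 0.14 had an unadjusted p of 0.0273 but was not called (edgeR adjusted p = 0.348). VEGFA (ENSG00000112715, chromosome 6, 43770184 to 43786487, plus strand), the vessel growth factor, had 48.2, 53.4 and 48.3 CPM in the control replicates and 55.9, 51.8 and 52.5 CPM in the IL17D-overexpressing replicates. Its groups overlapped, with a log2 fold change of 0.097 (95% interval -0.028 to 0.22, edgeR adjusted p = 0.6). The mitophagy receptor genes BNIP3 (-0.045) and BNIP3L (-0.075), the collagen prolyl hydroxylase genes P4HA1 (0.027) and P4HA2 (0.080), and ANKRD37 (0.31, interval -0.14 to 0.75) had the log2 fold changes given and were not called. ANKRD37 had 47 to 78 counts per library, and 35.2% of its exon bases overlap UFSP2 on the opposite strand.

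Set against the enzymes, the 20 tested other hypoxia genes held 7 of the 8 calls, 5 higher and 2 lower, beside 1.58% of all tested genes called in either direction. Before adjustment, 8 of them had a p under 0.05, against 11.6% of all tested genes. They had 12 positive and 8 negative log2 fold changes, from -0.29 (CA12) to 0.45 (SLC2A3), with a median of 0.089 against -0.0055 for the enzymes and -0.0004 for all tested genes. The median deviation of the 20 genes from their control mean, on the log2 CPM scale, was -0.023, 0.0018 and 0.020 in the control replicates and 0.055, 0.097 and 0.051 in the IL17D-overexpressing replicates. All 3 IL17D-overexpressing libraries thus stood above the control libraries on this description. The counts of the 21 genes took 0.3385% to 0.349% of the total in the control libraries and 0.347% to 0.353% in the IL17D-overexpressing libraries. Known HIF targets stood on both sides, with SLC2A1 and CA12 lower and SLC2A3, ADM, NDRG1 and LDHA higher.

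From the same pathways, 91 further genes, 35 of glycolysis and pyruvate use and 56 of the hypoxia response, were taken from a hand-written list. This list was chosen with earlier results of these data known, so it is no independent check of the pattern. Of the 91 genes, 78 were tested, 5 were called higher (against 0.673% of all tested genes) and 0 lower (against 0.908%). In edgeR's test 18 of the 78 had an unadjusted p under 0.05, against 11.6% of all tested genes, and the count of lower calls was also 0 with DESeq2 and with limma voom. The groups did not overlap for 13 that were higher and 7 that were lower, against 7.48% and 8.31% of all tested genes. The median log2 fold change was 0.010, with 40 positive and 38 negative values. The 13 untested genes were mostly forms of other tissues, such as HK3, PFKFB1, PKLR, PGK2, LDHC and SLC2A2, and also included HIF3A, EPO and MIF, none with more than 22 counts in any library. Of the exon bases of MIF, which encodes a cytokine that most cell lines express, 61.95% overlap MIF-AS1 on the opposite strand. On the same strand, 32.19% lie in exons of AP000350.4, which had 0 counts in all libraries. MIF had 2 to 12 counts, and the part of these overlaps in the low count was not tested.

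PDK4 (ENSG00000004799, chromosome 7, 95583499 to 95596491, minus strand), which encodes a pyruvate dehydrogenase kinase like PDK1, had 90.03, 88.9 and 86.2 CPM in the control replicates and 112.5, 112 and 116 CPM in the IL17D-overexpressing replicates. The groups were well separated, with a log2 fold change of 0.36 (SE 0.046, edgeR adjusted p = 2.57e-06). LDHB (ENSG00000111716, chromosome 12, 21635342 to 21757857, minus strand), the H subunit of lactate dehydrogenase, had 45.2, 55.9 and 38.7 CPM in the control replicates and 54.5, 59.0 and 57.7 CPM in the IL17D-overexpressing replicates. Here the groups overlapped, and the call (log2 fold change 0.30, SE 0.078, edgeR adjusted p = 0.0409) was lost in DESeq2 (adjusted p = 0.572) and without any 1 of control replicates 1 and 3 and IL17D replicates 1, 2 and 3, with edgeR adjusted p-values of 0.158, 0.248, 0.0546, 0.131 and 0.181. Its log2 fold change was 0.18 without control replicate 3 and 0.44 without control replicate 2. In exons, 33.4% of LDHB is shared on the same strand with AC010197.2, which had 0 to 3 counts. How reads in these exons were counted is not given in the sources used here. The effect of the overlap on the level of LDHB, and on its ratio to LDHA, was not tested. LDHA exceeded LDHB per kilobase of exon 25.03 ± 4.81 times (SD, n = 3) in control cells and 21.4 ± 0.859 times in IL17D-overexpressing cells, a difference within the spread (two-sided exact permutation test, p = 0.4, 0.64 adjusted over the 8 ratios).

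STC1 (ENSG00000159167, chromosome 8, 23841915 to 23854807) encodes stanniocalcin-1, a secreted glycoprotein. It had 23.1, 22.7 and 25.7 CPM in the control replicates and 34.5, 35.2 and 34.8 CPM in the IL17D-overexpressing replicates. This was the largest called difference among the further genes, with a log2 fold change of 0.54 (SE 0.077, edgeR adjusted p = 2.18e-05). IGFBP3 (ENSG00000146674, chromosome 7, 45912245 to 45921874), a secreted binding protein of insulin-like growth factors, had 2134, 2048 and 2172 CPM in the control replicates and 2390, 2429 and 2328 CPM in the IL17D-overexpressing replicates, without overlap (log2 fold change 0.17, SE 0.026, edgeR adjusted p = 8.77e-05). EFNA1 (ENSG00000169242, chromosome 1, 155127460 to 155134857), a membrane-bound ephrin ligand, had 35.1, 33.5 and 33.3 CPM in the control replicates and 39.6, 40.9 and 42.1 CPM in the IL17D-overexpressing replicates. Its groups did not overlap (log2 fold change 0.27, SE 0.068, edgeR adjusted p = 0.0329), but the call was lost with DESeq2 (adjusted p = 0.058) and without any 1 of control replicates 2 and 3 and IL17D replicates 1, 2 and 3, with edgeR adjusted p-values of 0.119, 0.0842, 0.067, 0.0974 and 0.189.

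**Figure D5:**
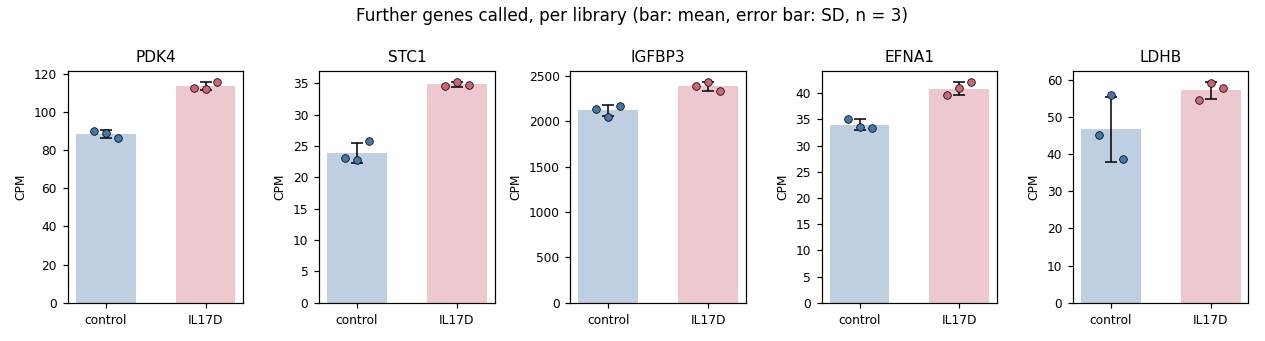
CPM in each library (points) of the 5 further genes called at an adjusted p under 0.05, with bars for the group mean and error bars for the SD (n = 3). PDK4, STC1, IGFBP3 and EFNA1 show no overlap between the groups, and in LDHB control replicate 2 reaches into the IL17D-overexpressing libraries.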

How the data were processed

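RNA-seq of total RNA from A549 cells was analysed, with 3 libraries each of IL17D-overexpressing and control cells, grouped by the sample labels. The authors deposited 1 table of counts, the whole number of reads per gene and library without normalization, and all of its per-sample columns were used. The submitters' processing notes name Bowtie2 and hg38. The counter, its strand setting and its rule for shared exons are not given in the sources used here, and different Illumina instruments are named in the methods and in the labels. Gene coordinates were those of GENCODE 29 on GRCh38.

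Genes were kept by edgeR's filterByExpr (minimum count 10), scaled by TMM and compared with the quasi-likelihood test (edgeR 4.0.16, R 4.3.3), two-sided, with Benjamini-Hochberg adjustment over 15754 genes. CPM used the scaled library sizes, and levels per kilobase used the gene length of the table. Intervals are 95% intervals from the same fit. Ratios of isoforms were compared by exact permutation over the 6 libraries. Exon overlap and shared 31-base stretches were computed from GENCODE 29, and promoter letters were read from RefSeq. Alternatives used DESeq2 1.42.0 and limma 3.58.1, other filters and scaling, the replicate number as a block, sums with pseudogenes and leaving out each library. The steps were tested on simulated data in which the changes were larger than any called among the 39 genes. The recovery of changes as small as those called there was not tested. Figures were drawn in Python 3.11.15 with matplotlib 3.10.9.

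The genes, lists and tests were chosen with earlier results of these data known. Genes given with full values are those with an adjusted or unadjusted p under 0.05 among the 39, HIF1A, EPAS1, GAPDH, PGK1, CA9, VEGFA, ADM and NDRG1, the isoform sets per length, and the further genes called. ENO1 and ALDOA were given values per library after these had been seen.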

Additional observations from a re-analysis of the deposited data

How the results depend on the processing

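For each list 13 other settings were run, and sums of counts with named pseudogenes for the glycolytic enzymes as well. The calls of SLC2A3, SLC2A1, CA12, EPAS1, ADM, NDRG1, PDK4, STC1 and IGFBP3 held in all of these. The glycolytic enzymes had 0 calls, LDHA being lost, with the replicate block (edgeR adjusted p = 0.0616) and 0 to 1 when a library was left out. Calls among all tested genes numbered 145 to 267 when a library was left out (155 without IL17D replicate 1 and 145 without IL17D replicate 3). The other hypoxia genes kept 6 to 7 calls, and their median was 0.057 to 0.088 when a library was left out. The further genes then had 3 to 4 calls and a median of -0.0006 to 0.031, and with all genes of at least 1 count a median of -0.0076. LDHB missed the threshold with total counts in place of TMM as well (edgeR adjusted p = 0.0529). Of the enzymes refitted under each setting, HK1, ENO2 and PFKL changed sign. HK1 was -0.0014 with total counts, -0.0004 with all genes of at least 1 count, and -0.028 (without control replicate 3) to 0.023 when a library was left out, with -0.024 without IL17D replicate 2. ENO2 was -0.027 to 0.015 when a library was left out (0.012 without control replicate 2, 0.0051 without control replicate 3, 0.015 without IL17D replicate 1). PFKL was -0.035 (without control replicate 3) to 0.0985. The causes of these shifts were not tested.

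Whether replicate numbers pair the samples is not given in the sources used here. The deviations of same-numbered libraries correlated at 0.010, -0.012 and -0.015, and those of other pairs at -0.041 to 0.054. With 3 libraries per group, these values cannot decide whether the samples were paired. The replicate block gave 272 calls among all genes in place of 249, and of the 13 genes called in the lists it ended the call of LDHA alone. Counts are relative to the sum of each library, so a change in the RNA content of the cells would not be seen. Precision is limited for genes with few counts (HK2, ALDOA, ALDOC, ANKRD37, PFKFB4 and CA9). The sums of SLC2A3 with SLC2A14 and of ALDOA with AC093512.2 were chosen after seeing the data.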
